A study of Mus musculus with 6 samples.

Results

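The MYC network comprises 10 genes here: the activators Myc, Mycn and Mycl, their shared partner Max, the antagonists Mxd1, Mxd3, Mxd4 and Mxi1, and the further MAX partners Mnt and Mga. They and the related lists below were chosen by name, with earlier results of these data known. All 10 network genes were measured among 22180 genes. RNA levels come from 6 Mouse Gene 2.0 ST arrays (Affymetrix) of KP1, a single mouse small cell lung cancer line derived from a triple knockout model without Rb, p53 and p130, so control and treated cells share these deletions. In the control group (3 arrays) the cells carried an empty ires-GFP vector, and in the N1ICD group (3 arrays) they carried Notch1-ICD-ires-GFP, the intracellular and active part of the Notch1 receptor. All cells were sorted for GFP 48 hours after transfection, and the labels call the samples biological replicates without naming separate cultures, so the p-values below measure the spread between these samples.

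MYC proteins are helix-loop-helix leucine zipper factors that bind DNA only as a pair with MAX, at the E-box CACGTG, and drive genes of ribosome production, nucleotide synthesis and cell cycle entry. MXD proteins, MXI1 and MNT compete for MAX and recruit SIN3 and histone deacetylases to the same sites, while MGA joins MAX to a Polycomb complex, PRC1.6. In small cell lung cancer 1 of the 3 MYC genes is often amplified or highly expressed, MYCL typically in neuroendocrine tumours, and in T cell leukaemia NOTCH1 activates MYC directly.

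RefSeq promoter windows (GRCm38.p6, from 250 bases before a transcript start to 50 after) were found for 9 of the 10 genes, and they are shown because Mycl and Mycn both fell and because the network binds E-boxes. Capitals mark the matched letters, searched on both strands. The Mycn stretch, the 250 bases upstream of its start at chr12:12941837-12942086 on the minus strand, holds TTTGGCGC, an E2F-type sequence, 2 times, at -183 and -168 from the start.
Mycn: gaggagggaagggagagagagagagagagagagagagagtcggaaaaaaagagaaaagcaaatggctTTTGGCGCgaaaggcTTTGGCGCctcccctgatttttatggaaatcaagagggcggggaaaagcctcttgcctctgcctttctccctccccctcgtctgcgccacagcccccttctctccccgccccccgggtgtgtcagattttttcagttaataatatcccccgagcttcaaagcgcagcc
This sequence was searched after the window had been seen. It occurs in 0.585% of the 27025 genes with a window and in 1 of the 9 network genes.

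The network's own E-box CACGTG stood in the windows of 3 of the 9 genes, Max, Mxd4 and Mnt, against 8.09% of all genes. CACGCG, a sequence that HES and HEY repressors can bind, stood in those of Mycl and Mga, against 10.5% of all genes. The Mga site, not printed here, begins 21 bases before the start. Mycl fell and Mga did not pass the test below, while Mycn fell and its window held no CACGCG. The 30 bases around these sites follow for the partner Max (chr12:76962234-76962263, minus strand), Mxd4 (chr5:34187912-34187941, minus strand), Mnt (chr11:74830789-74830818, plus strand) and Mycl (chr4:122995899-122995928, plus strand).
Max: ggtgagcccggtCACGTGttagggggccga
Mxd4: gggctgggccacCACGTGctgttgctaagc
Mnt: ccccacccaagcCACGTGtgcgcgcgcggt
Mycl: ccaagccccgggCACGCGacgagatataaa
The sites begin 3, 219, 123 and 20 bases before the start, and that of Max spans it. The start used lies 343 bases inside the outermost RefSeq start for Mycl, 24725 bases inside it for Mga, and 378, 19285 and 19567 bases inside it for the 3 windows of Mxi1. For the other genes it lies at most 169 bases inside. TGGGAA, the core sequence of the Notch partner RBPJ, was found for Mxd3 and Mxi1 (28.3% of all genes), and CACNAG, a further HES-type sequence, for 6 of the 9 (46.1% of all genes). These matches describe letters in a short window, and no binding was measured.

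Of the 22180 genes tested with limma at an adjusted p under 0.05 (Benjamini-Hochberg), 848 were higher in N1ICD and 726 lower, together 7.10%. With control replicates 1, 2 and 3 and N1ICD replicates 1 and 2 left out in turn, the lower genes numbered 426, 339, 308, 473 and 275, and without control replicate 2 or N1ICD replicate 2 the higher genes numbered 557 and 548. Notch1, the transfected gene, rose by 1.59 ± 0.17 (SE) on the log2 scale. All 10 measured neuroendocrine markers had control means above every array median (5.59 to 5.72), as did 1 of 6 macrophage and leukocyte markers, 3 of 7 fibroblast markers and 3 of 5 endothelial markers. Over all genes 12473 of 22180 had such control means, so a level above the medians does not by itself show a cell type. Among the neuroendocrine markers 2 fell, the Notch ligand Dll3 (-1.43 ± 0.15, limma adjusted p = 0.00085) and the transcription factor Insm1 (-0.89 ± 0.15, adjusted p = 0.0101), and 2 rose, Chga (0.64 ± 0.12, adjusted p = 0.0155) and Ncam1 (0.53 ± 0.11, adjusted p = 0.0263). Their list mean overlapped between groups (9.68 to 9.79 in control arrays, 9.60 to 9.74 in N1ICD arrays), and their part in the results below was not tested. The mean over the endothelial list went from between 5.67 and 5.85 in control arrays to between 6.53 and 6.73 in N1ICD arrays through Kdr (3.04 ± 0.17, limma adjusted p = 2.77e-05) and Tek (1.06 ± 0.14, adjusted p = 0.00312). The other 3 endothelial markers were not called: Pecam1 had means of 6.01 and 6.08 in control and N1ICD, above every array median, while Cdh5 (4.92 and 4.91) and Emcn (3.24 and 3.54) stood below every array median. The part of endothelial-like expression in the results below was not tested. The list means of the macrophage (4.84 to 4.95) and fibroblast (5.77 to 5.91) markers overlapped between groups.

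In the network, 2 of 10 genes fell in N1ICD cells, against 3.27% of all genes called lower, and 0 rose, against 3.82% called higher, by limma with adjustment over all genes. Both genes that fell encode MYC proteins, Mycl and Mycn, while the third, Myc, the transcription factor that gives the family its name, did not pass the test. Max and the antagonists did not pass it either. At an unadjusted p under 0.05 the count was 3 of 10, all lower, Mxd1 being the third, against 19.9% of all genes in either direction. The 3 arrays of one group lay wholly below those of the other for these same 3 genes, all lower in N1ICD, against 15.0% of all genes separated in that direction. The median log2 change of the 10 genes was -0.13, beside -0.02 over all genes. With dim genes left out (mean at or below the median of all values), 2 of the 10 fell and 0 rose, against 1248 and 986 of 12830 genes.

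**Figure D1:**
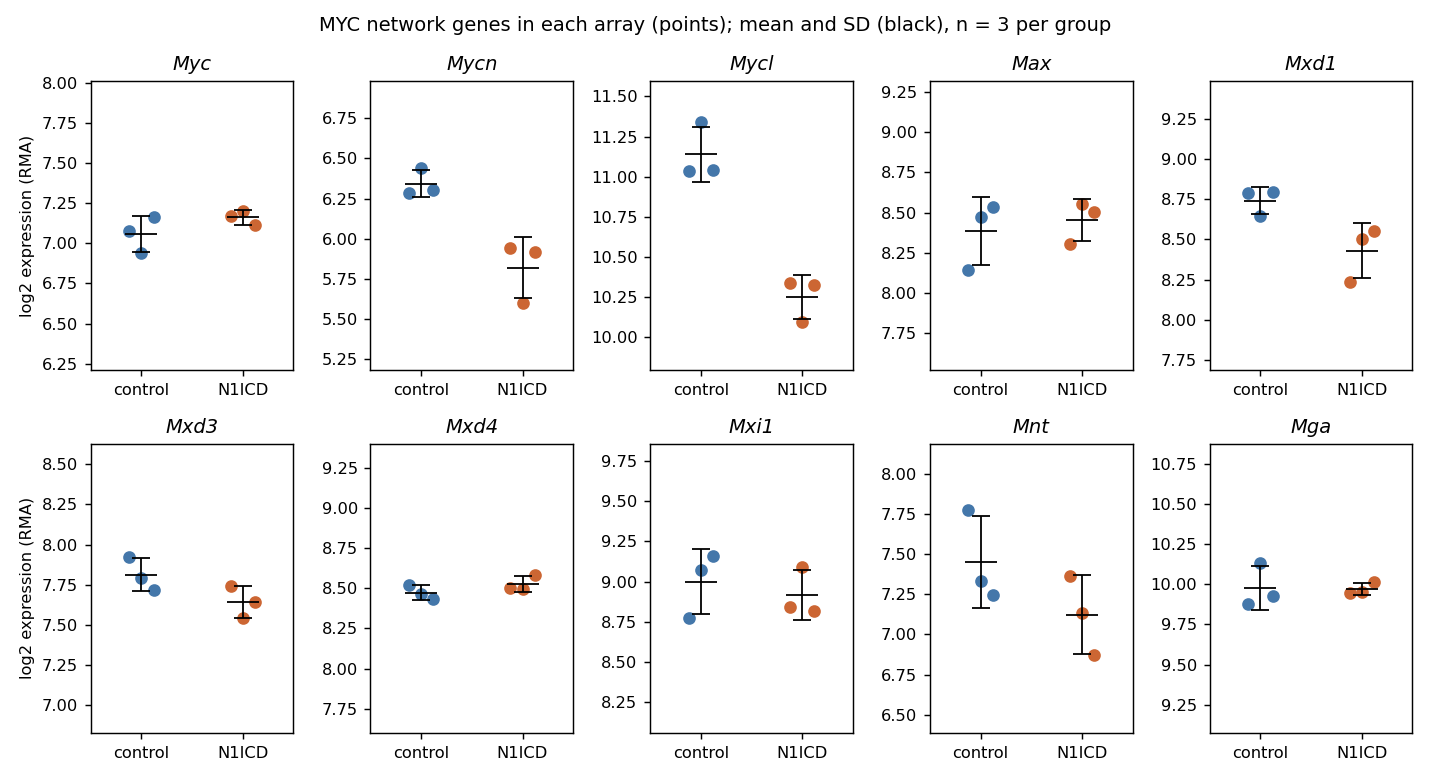
Log2 expression (RMA) of the 10 network genes, a panel per gene with an axis of equal span, in 3 control and 3 N1ICD arrays (points), with group mean and SD in black. For Mycl the N1ICD arrays lie at 10.09 to 10.34, below control arrays at 11.04 to 11.34, while the groups overlap for Myc, Max, Mxd3, Mxd4, Mxi1, Mnt and Mga.

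Mycl, the family member linked to neuroendocrine small cell lung cancer, had log2 expression of 11.04, 11.34 and 11.04 in control replicates 1, 2 and 3 and of 10.34, 10.09 and 10.33 in N1ICD replicates 1, 2 and 3. Every N1ICD array lay below every control array, with a gap of 0.70 between the groups. The mean fell from 11.14 ± 0.17 (SD, n = 3) to 10.25 ± 0.14, a fall of 1.85-fold (log2 change -0.89 ± 0.12 SE, 95% confidence interval -1.17 to -0.60, limma adjusted p = 0.00418). A change of this size or larger was seen in 2.44% of all genes. The call was kept without any 1 of the 6 arrays, with adjusted p up to 0.0204. In RNA from sorted cells in bulk, fewer expressing cells and less Mycl RNA per cell cannot be told apart.

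Mycn, the paralog best known from neuroblastoma, measured 6.29, 6.44 and 6.30 in the control replicates and 5.94, 5.60 and 5.91 in the N1ICD replicates. The groups did not overlap here either, with a gap of 0.34, and N1ICD replicate 2 was the lowest array for both Mycn and Mycl. The mean fell from 6.34 ± 0.09 (SD, n = 3) to 5.82 ± 0.19, or 1.44-fold (log2 change -0.52 ± 0.12 SE, 95% confidence interval -0.80 to -0.25, limma adjusted p = 0.0381). This call was lost without any 1 of the 6 arrays, with log2 changes from -0.59 to -0.41 and adjusted p from 0.0528 (without N1ICD replicate 1) to 0.135 (without control replicate 2), and also with p adjusted over all probe sets (0.122). The N1ICD level lay close to the array medians, a range in which RMA compresses differences.

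Myc, a direct target of Notch1 in T cells, measured 7.08, 6.94 and 7.16 in the control arrays and 7.17, 7.20 and 7.11 in the N1ICD arrays. N1ICD replicate 3 lay below control replicate 3, so the groups overlapped. The log2 change was 0.10 ± 0.10 (SE, limma adjusted p = 0.644), and its 95% confidence interval of -0.12 to 0.33 holds neither the fall of Mycl nor that of Mycn.

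The unequal behaviour of the 3 paralogs was also read within each array, where a scaling factor of the array cancels. The difference between Mycl and Myc was 3.96, 4.40 and 3.88 log2 units in the control arrays and 3.17, 2.89 and 3.21 in the N1ICD arrays. All N1ICD values were lower, by 0.99 ± 0.19 (SE) in the mean. The difference between Mycl and Mycn was 4.75, 4.90 and 4.74 in the control arrays and 4.39, 4.49 and 4.41 in the N1ICD arrays, again without overlap. The difference changed by -0.36 ± 0.06 (SE), the amount by which the measured mean fall of Mycl exceeded that of Mycn. Mycn lay much closer to the array medians than Mycl, and compression of dim values by RMA does not cancel within an array. Its part in this difference was not tested. Both exact two-sided permutation p-values over the 20 assignments of the arrays were 0.1, also when adjusted over the 2 pairs, and 0.1 is the smallest p that 3 against 3 arrays allow. The heights of these differences hold the unlike responses of the probe sets, so only the change between groups is read.

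**Figure D2:**
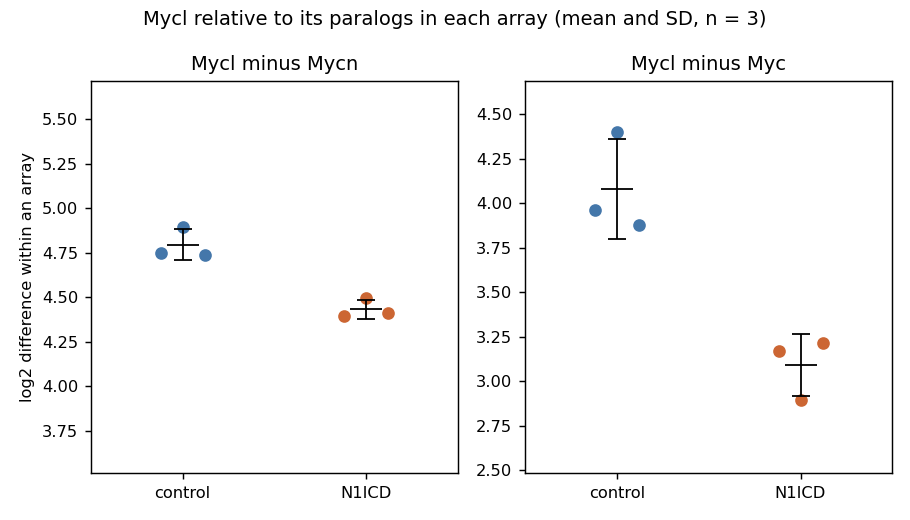
Log2 difference between Mycl and Mycn (left) and between Mycl and Myc (right) within each array, for 3 control and 3 N1ICD arrays (points), with group mean and SD in black. Both differences are smaller in every N1ICD array, with means of 4.80 and 4.43 (left) and 4.08 and 3.09 (right).

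Max, the partner that all MYC and MXD proteins need to bind DNA, measured 8.14, 8.47 and 8.54 in the control arrays and 8.30, 8.56 and 8.50 in the N1ICD arrays. Replicate 1 was the lowest array in both groups, and the ranges overlapped almost fully. The log2 change was 0.07 ± 0.13 (SE, limma adjusted p = 0.835, 95% confidence interval -0.23 to 0.38), and it was -0.05 without control replicate 1.

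Among the antagonists, Mxd1, a repressor that rises in many cells as they differentiate, measured 8.79, 8.64 and 8.79 in the control arrays and 8.24, 8.50 and 8.55 in the N1ICD arrays. The groups were separated by a narrow gap of 0.09. Its log2 change of -0.31 ± 0.11 (SE, 95% confidence interval -0.57 to -0.05) did not pass the test over all genes (limma adjusted p = 0.175). Mxd3, an MXD gene whose RNA is often found in dividing cells, ranged from 7.72 to 7.92 in the control arrays and from 7.54 to 7.74 in the N1ICD arrays, overlapping by 0.02, with a log2 change of -0.17 ± 0.10 (adjusted p = 0.424).

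Mxd4 had the smallest control SD of the 10 (0.045). Its N1ICD SD (0.047) was larger than those of Mga (0.039) and Myc (0.044). Mxd4 ranged from 8.44 to 8.52 in the control arrays and from 8.50 to 8.58 in the N1ICD arrays, with a log2 change of 0.05 ± 0.09 (limma adjusted p = 0.811). Mxi1, the MAX interactor also called Mxd2, ranged from 8.77 to 9.16 and from 8.82 to 9.09 (-0.08 ± 0.13, adjusted p = 0.799). A second Mxi1 probe set gave -0.05 ± 0.14. None of these 4 antagonists was called in either direction, and their 95% confidence intervals end at -0.57 on the lower side and at 0.26 on the upper side.

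Mnt, the MAX-bound repressor that many proliferating cells keep beside MYC, varied most between replicates. It measured 7.78, 7.33 and 7.25 in the control arrays and 7.37, 7.13 and 6.87 in the N1ICD arrays, so that N1ICD replicate 1 overlapped the control range. The log2 change was -0.33 ± 0.17 (SE, limma adjusted p = 0.357), and the wide 95% confidence interval of -0.73 to 0.07 covers values from a fall as large as that of Mycn to no change. Replicate 1 was the highest and replicate 3 the lowest array of Mnt in both groups. With the replicate number as a block its SE was 0.09 (limma adjusted p = 0.105), and Mnt was still not called. Mga, which carries a T-box as well as a helix-loop-helix domain, measured 9.88, 10.13 and 9.93 in the control arrays and 9.94, 9.95 and 10.02 in the N1ICD arrays. Its log2 change of -0.01 ± 0.10 (adjusted p = 0.981, 95% confidence interval -0.24 to 0.23) turned to 0.02 when the arrays were quantile normalized again.

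**Figure D3:**
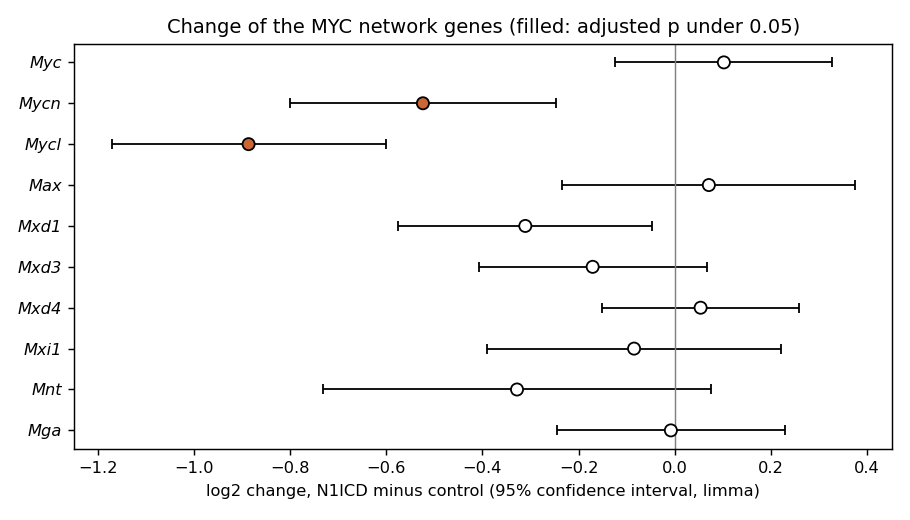
Log2 change (N1ICD minus control) of the 10 network genes from limma with 95% confidence intervals, filled where the adjusted p over all genes is under 0.05. Mycl at -0.89 and Mycn at -0.52 are filled, the interval of Mxd1 ends at -0.05, and the intervals of the other 7 genes include 0.

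Genes whose log2 values followed those of the 2 called members most closely over the 6 arrays were found by Pearson's r, given as a description of 6 points that share the group difference. For Mycl they were Tarbp1 (r = 0.996), Faxc (r = 0.995) and Kif15 (r = 0.995), with log2 changes of -0.27, -0.33 and -0.37 that did not pass the test. For Mycn they were B930095G15Rik (r = 0.996), Pdgfa (r = 0.996) and Pprc1 (r = 0.995), of which Pprc1 fell (-0.47 ± 0.10, limma adjusted p = 0.0334). With so few arrays, which share the group difference, such values were not limited to the genes named. Of the 22180 genes, 368 outside the network had an r above 0.95 with Mycl and 342 with Mycn.

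Neighbours of the MYC genes on the chromosome were followed to see whether the falls of Mycl and Mycn extended along it. Trit1 and Mfsd2a, which have no other protein-coding gene between them and Mycl, had log2 changes of -0.08 ± 0.10 and 0.09 ± 0.12 and did not pass the test. Cap1, Bmp8b, Ppt1 and Bmp8a, further away, had log2 changes of 0.13, -0.24, 0.17 and 0.11, none of them called. Beside Mycn, Ddx1 changed by -0.08 ± 0.11 and Nbas by -0.28 ± 0.11 (limma adjusted p = 0.751 and 0.213). Pvt1, the long noncoding RNA next to Myc, fell by 0.51 ± 0.10 on the log2 scale (adjusted p = 0.022) where Myc was not called. That call was lost without any control array or without N1ICD replicates 2 or 3 (adjusted p from 0.0631 to 0.0840), and the control mean of 5.67 lay among the array medians.

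The MLX branch is a parallel arm in which MLX pairs with the glucose sensors MLXIP (MondoA) and MLXIPL (ChREBP). Mlx (-0.09 ± 0.10), Mlxip (0.01 ± 0.15, or -0.01 under equal array medians) and Mlxipl (-0.52 ± 0.22, limma adjusted p = 0.249) did not pass the test. Of their glucose-responsive targets, the thioredoxin inhibitor Txnip fell 1.56-fold (-0.64 ± 0.09, adjusted p = 0.0042) and Arrdc4 was near 0 (-0.01 ± 0.09). Among 9 other E-box factors, limma called 1 lower and 0 higher (3.27% and 3.82% of all genes), and 1 had an unadjusted p under 0.05 (19.9% of all genes). It was Tfap4, itself a gene induced by MYC, with -0.59 ± 0.13 (adjusted p = 0.029). Its call was lost without any control array or without N1ICD replicates 2 or 3 (adjusted p from 0.0604 to 0.113) and when the arrays were quantile normalized again (0.0533).

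Corepressor subunits that the antagonists recruit were not called. Of 14 measured SIN3 and HDAC subunits, limma called 0, with 1 at an unadjusted p under 0.05 (19.9% of all genes), Sap30 (-0.34 ± 0.11, adjusted p = 0.136), and the list median was -0.06. The partners of MGA in PRC1.6 lay lower: 8 of 12 had all N1ICD arrays below all control arrays, against 15.0% of all genes, and the list median was -0.32. In this list 1 gene was called lower and 0 higher by limma, against 3.27% and 3.82% of all genes, and 8 of 12 had an unadjusted p under 0.05, against 19.9%. The gene was Tfdp2, a dimer partner of E2F factors (-0.48 ± 0.09, adjusted p = 0.0164), a call lost without any control array or without N1ICD replicate 2 (adjusted p from 0.0502 to 0.0672). Without N1ICD replicate 3 the count was 3. All 12 genes had control means above every array median, while the shares over all genes include dim genes. With dim genes left out, 3 of the 12 fell and 0 rose, against 1248 and 986 of 12830 genes. The Polycomb adaptor Rybp (-0.67 ± 0.18, adjusted p = 0.070) and the methyl-lysine reader L3mbtl2 (-0.44 ± 0.12, adjusted p = 0.0692) came next, named after their values were seen.

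For 16 MYC cofactors and 20 genes that control MYC protein turnover, the counts are set beside those of all genes. Over all genes limma called 3.27% lower and 3.82% higher, and 19.9% had an unadjusted p under 0.05. The N1ICD arrays lay wholly below the control arrays in 15.0% of all genes, 6 of 16 cofactors and 7 of 20 turnover genes. They lay wholly above them in 2458 of 22180 genes, 0 cofactors and 1 turnover gene. Of the cofactors, limma called 1 lower and 0 higher, and 4 had an unadjusted p under 0.05 (list median -0.14). The gene was Zbtb17, which encodes MIZ1, the factor through which MYC represses CDK inhibitor genes (-0.44 ± 0.10, limma adjusted p = 0.0293), and the call was lost without any 1 of the 6 arrays (adjusted p from 0.0557 to 0.116). Of the turnover genes, 1 was called lower and 0 higher, and 5 had an unadjusted p under 0.05 (list median -0.09). Fbxo32, a ubiquitin ligase subunit also known as atrogin-1, fell 1.77-fold (-0.82 ± 0.10, adjusted p = 0.00211) and kept its call without any 1 of the 6 arrays. All 16 cofactors and all 20 turnover genes had control means above every array median, while the shares over all genes include dim genes. With dim genes left out, 2 cofactors and 3 turnover genes fell and 0 of either list rose. Over all genes 1248 then fell and 986 rose, of 12830. MYC protein itself was not measured.

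Of 66 measured genes that MYC proteins activate, 23 fell in N1ICD cells and 0 rose by limma with adjustment over all genes, against 3.27% of all genes called lower and 3.82% higher. The other 43 were not called. At an unadjusted p under 0.05 there were 41, each of them lower, against 19.9% of all genes in either direction. In 53 of the 66 the N1ICD arrays lay wholly below the control arrays, against 15.0% of all genes, and the list median was -0.35 beside -0.02 over all genes. In the order control replicates 1, 2 and 3 and N1ICD replicates 1 and 2 left out, 12, 9, 10, 14 and 7 of them fell. With dim genes left out, 34 of the 65 genes then tested fell and 0 rose, against 1248 and 986 of 12830 genes. The list was chosen with earlier results of these data known. Whether these falls, or the calls among MYC-repressed genes below, followed from those of Mycl and Mycn was not tested.

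The 10 largest falls of this list are named here. The G1 cyclin Ccnd2 (-1.35 ± 0.26, limma adjusted p = 0.0202) and the transcription factor E2f2 (-0.98 ± 0.11, adjusted p = 0.00137) fell most, and Ccnd2 lost its call without N1ICD replicate 2 (adjusted p = 0.0686). The mitochondrial folate enzymes Mthfd1l (-0.86 ± 0.12), Mthfd2 (-0.62 ± 0.10) and Shmt2 (-0.60 ± 0.09) fell as well. The amino acid transporter Slc7a5 fell by 0.69 ± 0.13 and the spermidine synthase Srm by 0.61 ± 0.12 on the log2 scale, calls that each depended on control replicates 1 and 3 and N1ICD replicate 2 (adjusted p without 1 of these from 0.0591 to 0.0714 and from 0.0583 to 0.0740).

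Polr1a, the large subunit of RNA polymerase I, fell by 0.59 ± 0.09 on the log2 scale. The purine synthesis enzyme Ppat (-0.59 ± 0.14) and the ribosome assembly factor Wdr12 (-0.58 ± 0.14) fell with adjusted p of 0.043 and 0.0481 by limma. Both of these calls were lost without any control array or without N1ICD replicates 1 or 2 (adjusted p from 0.0642 to 0.138 and from 0.070 to 0.156) and under equal array medians (0.0548 and 0.0641). The 43 genes that did not pass the test had log2 changes from -0.48 for Umps to 0.13 for Ldha. Of these 43, 3 had higher means in N1ICD, the glycolytic enzyme Ldha, the replication helicase subunit Mcm4 (0.08) and the translation factor Eif4a1 (0.02), all named after their values were seen.

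Genes that MYC proteins repress were called in both directions, with more means higher than lower. In this list of 16 measured genes 5 rose and 2 fell, against 3.82% and 3.27% of all genes, and the median was 0.21. The means of 12 were higher and of 4 lower in N1ICD, or 25% lower against 54.5% of all genes. The N1ICD arrays lay wholly above the control arrays in 8 and wholly below in 2, against 2458 and 3330 of 22180 genes. At an unadjusted p under 0.05 there were 8, against 19.9% of all genes. With dim genes left out, 5 of the 14 genes then tested rose and 2 fell, against 986 and 1248 of 12830 genes. The D-type cyclin Ccnd1, which is also a Notch target, rose by 5.41 ± 0.17, Ndrg2 by 2.29 ± 0.23, the stress sensor Gadd45g by 1.15 ± 0.11, the chaperone Clu by 1.11 ± 0.12 and the receptor Pdgfrb by 0.89 ± 0.14 on the log2 scale. The growth-arrest genes Btg2 (-0.83 ± 0.13) and Gadd45b (-0.65 ± 0.10) fell. These 7 calls were kept without any 1 of the 6 arrays (limma adjusted p up to 0.0413). Pdgfrb is also in the fibroblast list, whose other called member, Pdgfra, fell (-0.74 ± 0.14). The part of fibroblast-like expression in this result was not tested.

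**Figure D4:**
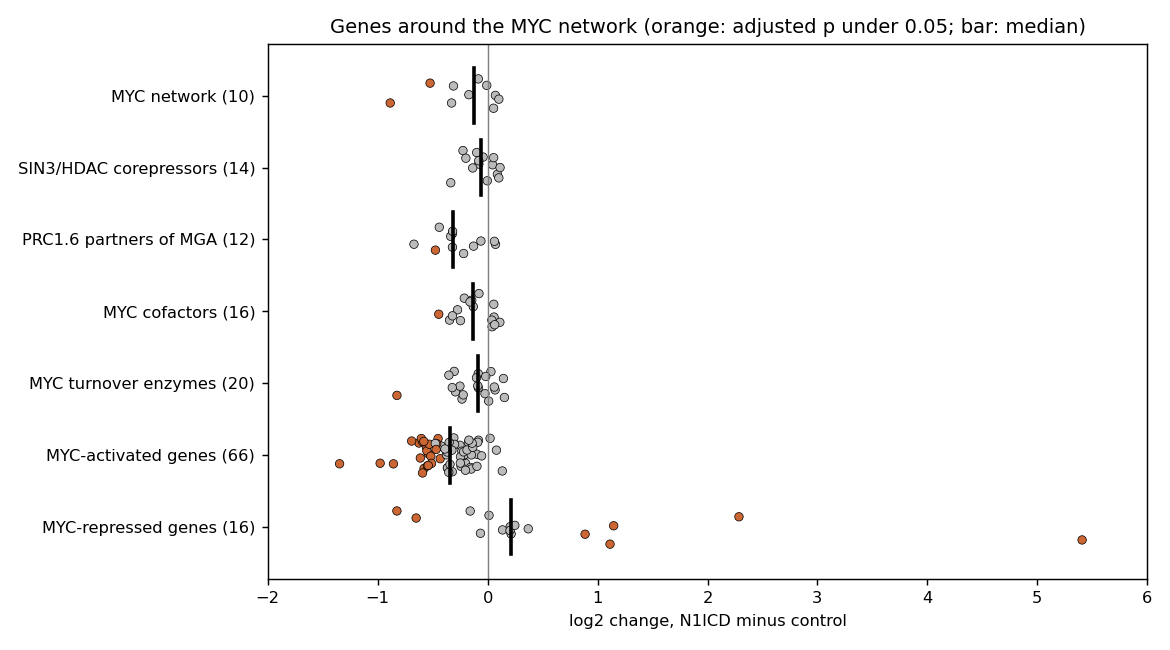
Log2 change (N1ICD minus control) of each measured gene in the MYC network and 6 related lists, with the number of genes in brackets, orange where the limma adjusted p is under 0.05, and a black bar at the list median. The MYC-activated genes centre at -0.35 with 23 falls and 0 rises, while the MYC-repressed genes reach from -0.83 to 5.41.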

How the data were processed

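Total RNA of 6 samples was hybridized to 1 array each. The deposited values are log2 expression after RMA by the authors, per the submitters' processing notes, which give no version; the base of the logarithm was taken as 2, as RMA uses, because neither it nor the arrays' genome build was stated. RMA gives the probe intensities of all arrays 1 distribution before probe sets are summarized, which hides any difference in total RNA between cells. It also compresses differences of dim probe sets.

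Of 41345 probe sets, the platform annotation gives 23521 a single symbol and 1814 several; 16010 are unnamed here. Each gene was represented by its brightest single-symbol probe set over the 6 arrays (22180 genes). Groups came from the sample titles. Differences are N1ICD minus control, fitted with limma 3.58.1 in R 4.3.3 (lmFit, eBayes, two-sided, Benjamini-Hochberg over all genes, threshold 0.05); ± is the SE of that fit after a change and the SD after a mean. The fit was also run on simulated data with independent noise and changes added to 200 genes, which checks the computation and not the calls reported here. Of 222 listed symbols 20 had no such probe set and were not analysed here. Figures were drawn with matplotlib 3.10.9, and the R package data.table (version 1.17.8) read the values.

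The members and lists were chosen with earlier results of these data known. Named were all members, every measured gene of the MLX branch and the neighbours, up to 5 called genes per direction of each other list (10 for MYC-activated genes), and the 3 genes most like each called member. Some lists share genes, such as Wdr5, Kat2a and Pdgfrb. The closing section gives the alternatives.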

Additional observations from a re-analysis of the deposited data

How the results depend on the processing

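The 2 falls among network genes remained 2 under equal array medians, repeated quantile normalization, dim genes left out (12830 genes tested), the mean over probe sets, and an intensity trend with robust eBayes. They became 1, Mycl alone, with p adjusted over all 41345 probe sets (Mycn adjusted p = 0.122), at an adjusted p under 0.01, with the replicate number as a block (Mycn 0.0792) and without any 1 array (lowest and highest count 1). Rises stayed at 0. The differences of Mycl to Mycn and Myc changed by -0.39 to -0.31 and -1.09 to -0.83 without 1 array.

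Over all genes, 1248 fell with dim genes left out and 1227 with the intensity trend; 480 rose and 226 fell with p adjusted over probe sets, and 460 and 208 under 0.01; without 1 array, 548 to 709 rose and 275 to 585 fell. MYC-activated genes had 7, 35 and 6 falls with p adjusted over probe sets, with the trend and under 0.01, and 7 to 20 without 1 array. PRC1.6 genes had 3 falls with dim genes left out or the trend, 2 with the replicate block, 0 with p over probe sets or under 0.01, and 0 to 3 without 1 array. Cofactors had 2 and turnover genes 3 with dim genes left out or the trend. Cofactors, E-box factors and neighbours had 0 with p over probe sets or under 0.01, E-box factors 0 after repeated quantile normalization, and neighbours 0 with dim genes left out, where Pvt1 was not tested. Without 1 array cofactors had 0, and E-box factors and neighbours 0 to 1. Apart from the settings that change the number of tests, samples or the threshold, the cause was not tested.

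Changes near 0 turned sign. On repeated quantile normalization Arrdc4 was at 0.012 and Mga at 0.021, and under equal array medians Mlxip was at -0.0086. Leaving out each array in turn gave -0.068 to 0.032 for Arrdc4, -0.14 to 0.0030 for Ddx1, -0.050 to 0.15 for Max, -0.011 to 0.17 for Mfsd2a, -0.060 to 0.069 for Mga and -0.13 to 0.13 for Mlxip.

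Same-numbered control and N1ICD arrays had deviations from their group means that correlated at 0.232, 0.00831 and 0.201 for numbers 1, 2 and 3, and N1ICD replicate 2 correlated best with control replicate 3 (0.0221), so the numbers were not taken to pair samples. With the replicate block 814 genes rose and 704 fell, and MYC-activated genes had 20 falls. The 3 arrays per group limit every value.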
